A study of Mus musculus with 9 samples.

Results

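The genes described here encode the NF-kB transcription factor family of the mouse and the IkB proteins that hold it in check. They comprise 5 subunit genes (Nfkb1, Nfkb2, Rel, Rela and Relb), 3 genes for classical cytoplasmic IkB proteins (Nfkbia, Nfkbib and Nfkbie) and 2 genes for atypical, nuclear IkB proteins (Nfkbiz and Bcl3). They were chosen by gene symbol from a count table of 35673 symbols, of which 21341 held enough reads to be tested. All 10 genes were found and all 10 were tested. Expression was measured by bulk RNA sequencing of basophils grown from bone marrow of wild-type C57BL/6J mice for 7 days in 0.3 ng/mL IL-3 and collected on the surface protein CD49b. Portions of 10000 cells then spent 4 hours under 1 of 3 treatments, and each treatment has 3 libraries. The difamilast group received IL-3 and IL-33, each at 10 ng/mL, together with 3 µM difamilast, a phosphodiesterase 4 inhibitor that raises cellular cAMP. The stimulated group received the same cytokines with the solvent DMSO, and the resting group received PBS with DMSO.

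NF-kB factors are dimers of subunits that share a DNA-binding Rel homology domain. RelA, c-Rel and RelB carry a transactivation domain, whereas Nfkb1 and Nfkb2 encode long precursors, p105 and p100, that are trimmed to p50 and p52 and act as IkB-like inhibitors before trimming. In resting cells IkB proteins keep dimers in the cytoplasm. Receptors such as ST2, which binds IL-33, switch on the IkB kinase complex, IkB is degraded, and the freed dimers enter the nucleus, where they also induce the genes of several of their own subunits and inhibitors. Nfkbiz and Bcl3 encode nuclear cofactors that bind p50 or p52 dimers on DNA. In basophils and mast cells, this pathway is known for driving cytokine genes after IL-33.

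Library totals ran from 24812305 to 30299575 reads in the difamilast group, from 11798711 to 38098584 in the stimulated group and from 6261446 to 14795353 in the resting group. The labels do not state that replicates came from separate cultures, so a p-value reflects only how much these libraries scatter, part of which may be technical. All 18 listed basophil markers were present, and their summed level lay between 22030 and 22960 CPM in difamilast, 19110 and 20170 CPM in stimulated and 13440 and 13680 CPM in resting libraries. With stimulation 11 were higher and 4 lower, and with difamilast 3 were higher and 3 lower (edgeR). Of all tested genes 15.3% were higher and 16.4% lower with stimulation, and 2.21% higher and 1.24% lower with difamilast. The markers included the proteases Mcpt8 (2802 ± 429, 3455 ± 229 and 1434 ± 415 CPM in difamilast, stimulated and resting cells; SD, n = 3 each) and Prss34 (2193 ± 219, 1987 ± 101 and 1529 ± 368 CPM). The sum weighs genes by their level, and the genes did not move together. The 4 lower with stimulation were Csf2rb (1.45-fold), Csf2rb2 (1.51-fold), Cebpa (1.65-fold) and Itga2 (1.75-fold). Among the 11 higher, the largest rises were those of Cd69 (15.7-fold), Il4 (5.43-fold) and Grm6 (4.42-fold). Hdc had 4518 ± 412, 2277 ± 70.9 and 1918 ± 377 CPM in difamilast, stimulated and resting cells, and Cd200r3 602 ± 58.5, 636 ± 9.21 and 601 ± 67.2 CPM. CPM here are read counts relative to the library total after TMM scaling. Markers of monocytes and macrophages were present as well. Their summed level over 15 genes lay between 5648 and 5787 CPM in difamilast, 5099 and 5444 CPM in stimulated and 6634 and 8244 CPM in resting libraries; 9 of the 15 were lower and 1 higher in stimulated than in resting cells, and 1 was higher and none lower with difamilast (edgeR; 4 had an unadjusted p under 0.05). That 1 was Cd14, the lipopolysaccharide co-receptor. The 9 mast cell markers in the table summed to between 1667 and 2004, 1758 and 1894, and 970.2 and 1371 CPM in difamilast, stimulated and resting libraries, and the 12 neutrophil markers to between 201.7 and 297.5, 279 and 308.4, and 247.2 and 288.4 CPM. Of the mast cell markers 2 were higher and 3 lower with stimulation, and 0 were higher and 2 lower with difamilast (edgeR; 3 of the 9 had an unadjusted p under 0.05). Among them Cpa3 reached 35904 reads in a library and Mcpt4 at most 12. With stimulation Cpa3 (1.96-fold) and Tpsab1 (4.16-fold) were higher, and Kit (1.51-fold), Mcpt1 (8.92-fold) and Mcpt2 (5.16-fold) were lower. Of these, Tpsab1, Mcpt1 and Mcpt2 averaged under 10 CPM in every group. The median log2 fold change of the 9 mast cell markers was -0.13, although their sum was higher. Of the neutrophil markers 2 were higher and 2 lower with stimulation, and 0 were higher and 1 lower with difamilast (edgeR). The part of these other cells in the values below was not tested, and in bulk RNA a change in the number of cells of a type cannot be told apart from a change in RNA per cell.

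Promoter windows from RefSeq (GRCm38.p6), each spanning 250 bases before to 50 bases after an annotated start, were available for 7 of the 10 genes. The kB consensus, the degenerate site that NF-kB dimers bind, was searched on both strands. It occurred in 5 of these 7 genes (Nfkb2, Rel, Nfkbia, Nfkbie and Bcl3) and in none of the windows of Rela and Nfkbib; of all 27025 genes with a window, 9.55% held it. A shorter form, GGNNTTTCC, which overlaps the consensus at most sites, was found in 4 of the 7 genes and in 6.62% of all genes. A match describes the letters of the window and does not show binding. The windows below are shown because these genes had changes of opposite sign under difamilast (Nfkbia and Nfkbie), had kB letters next to the start (Nfkb2 and Bcl3), or held no match (Rela). They are written 5′ to 3′ along the gene's strand, with consensus matches in capitals.
Nfkbia, chr12:55492598-55492897, minus strand: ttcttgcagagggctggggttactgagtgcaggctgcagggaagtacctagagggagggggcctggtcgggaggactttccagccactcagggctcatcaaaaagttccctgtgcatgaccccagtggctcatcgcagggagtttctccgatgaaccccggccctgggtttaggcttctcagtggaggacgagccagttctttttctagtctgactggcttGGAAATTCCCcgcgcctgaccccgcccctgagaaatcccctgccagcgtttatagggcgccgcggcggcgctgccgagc
Nfkbie, chr17:45555450-45555749, plus strand: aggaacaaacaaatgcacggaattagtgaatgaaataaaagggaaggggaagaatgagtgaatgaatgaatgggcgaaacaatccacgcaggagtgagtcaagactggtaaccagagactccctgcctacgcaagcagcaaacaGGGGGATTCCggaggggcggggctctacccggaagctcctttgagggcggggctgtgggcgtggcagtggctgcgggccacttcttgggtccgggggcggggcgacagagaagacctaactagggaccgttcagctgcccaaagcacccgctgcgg
Nfkb2, chr19:46304487-46304786, plus strand: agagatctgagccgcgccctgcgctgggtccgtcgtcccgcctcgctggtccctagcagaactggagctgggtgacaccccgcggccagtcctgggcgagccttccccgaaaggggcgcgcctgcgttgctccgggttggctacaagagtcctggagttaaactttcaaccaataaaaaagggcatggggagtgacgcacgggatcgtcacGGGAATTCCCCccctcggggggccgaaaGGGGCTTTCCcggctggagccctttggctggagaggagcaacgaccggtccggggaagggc
Bcl3, chr7:19822706-19823005, minus strand: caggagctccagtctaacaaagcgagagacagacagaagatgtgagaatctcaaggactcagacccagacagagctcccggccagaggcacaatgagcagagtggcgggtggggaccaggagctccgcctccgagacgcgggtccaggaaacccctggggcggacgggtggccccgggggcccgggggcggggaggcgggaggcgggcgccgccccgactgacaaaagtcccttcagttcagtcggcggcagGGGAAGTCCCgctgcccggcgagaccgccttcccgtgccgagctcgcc
Rela, chr19:5637291-5637590, plus strand: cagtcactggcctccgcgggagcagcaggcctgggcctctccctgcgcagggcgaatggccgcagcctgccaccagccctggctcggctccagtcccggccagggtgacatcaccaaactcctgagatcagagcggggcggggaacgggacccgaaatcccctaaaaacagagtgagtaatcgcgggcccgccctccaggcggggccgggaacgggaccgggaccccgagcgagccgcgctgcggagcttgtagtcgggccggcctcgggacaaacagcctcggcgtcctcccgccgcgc

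Counted from the annotated start, the Nfkbia match began at position -29, and a second site of the shorter form began at -178. The single Nfkbie match began at -106. In Nfkb2 overlapping matches lay at -39 and -38 and another at -11, and 2 further annotated starts of that gene had windows with a match too. The Bcl3 match began at 3, just inside the transcript, and its site of the shorter form lay apart from it at -104. Rel, not printed, had overlapping matches at -92 and -91.

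With IL-3 and IL-33 alone, 9 of the 10 genes rose against resting cells and 0 fell, by the quasi-likelihood test of edgeR, with p-values adjusted by Benjamini-Hochberg over all 21341 tested genes; 15.3% of all tested genes rose and 16.4% fell. The rises ran from 2.24-fold for Nfkbie to 6.81-fold for Bcl3, and the exception was Rela. Their size depended on scaling: TMM factors ran from 1.23 to 1.321 in resting and from 0.8706 to 0.8917 in stimulated libraries. All 9 were called in each of 18 alternative settings, with lowest log2 fold changes of 0.64 for Nfkbie and 2.24 for Bcl3. The median log2 fold change over the 10 genes was 1.84, beside 0.06 over all tested genes. In 9 of the 10 genes the stimulated and resting libraries did not overlap in CPM, as in 43.7% of all tested genes. DESeq2 and limma-voom gave no lower call either, and 0 of the 10 had an unadjusted p under 0.05 in that direction.

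**Figure D1:**
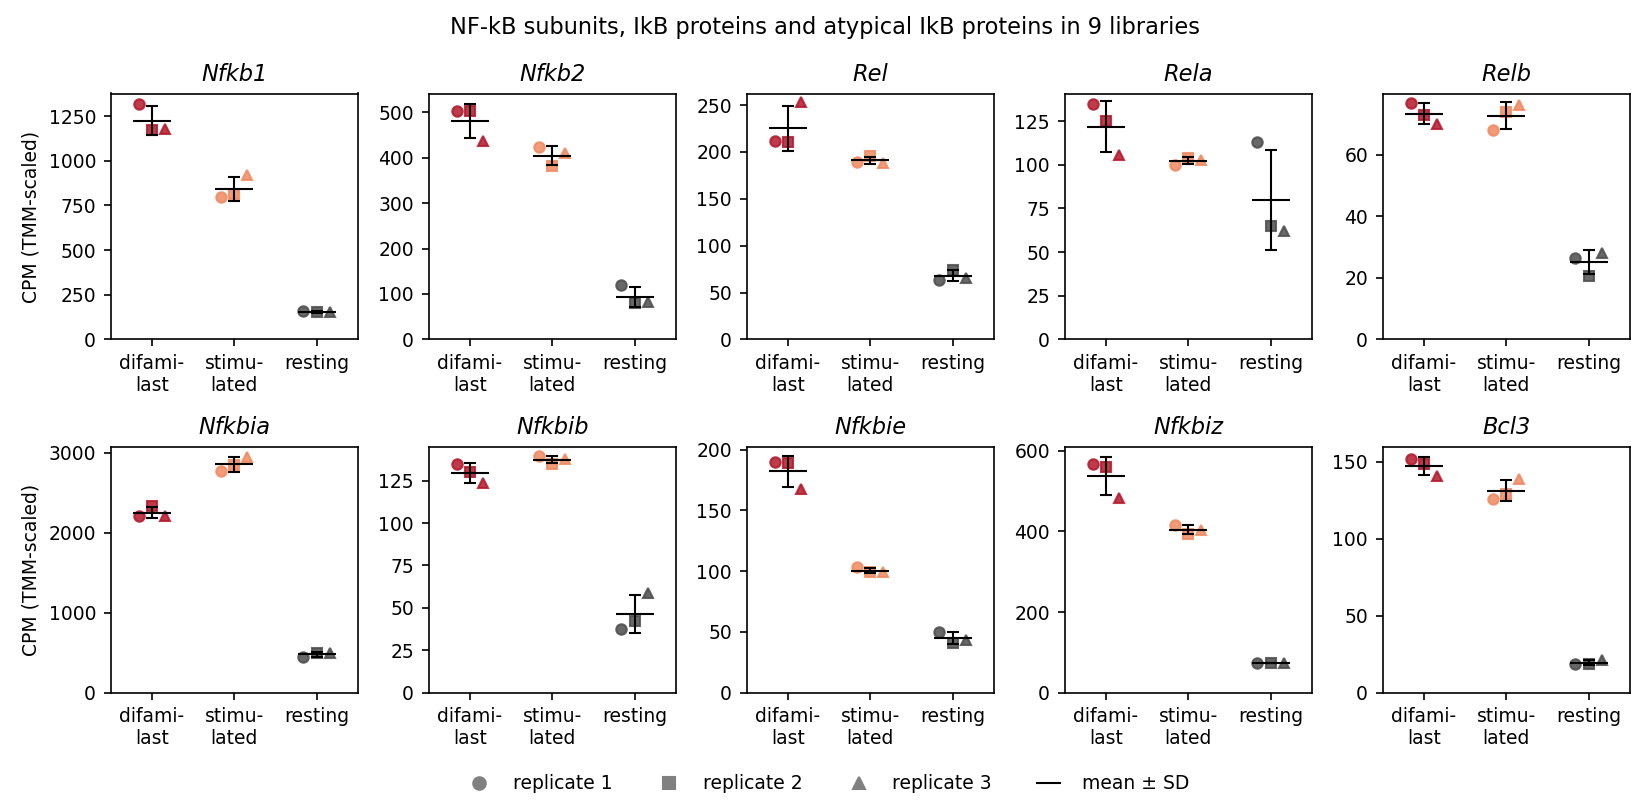
TMM-scaled CPM of each of the 10 genes (y axis, from 0) in the 3 libraries of the difamilast, stimulated and resting groups (x axis); symbols mark replicate numbers and black bars the mean ± SD. Stimulated libraries lie above resting ones for every gene except Rela, where resting replicate 1 at 112.9 CPM lies above all stimulated libraries, and Nfkbia and Nfkbib lie lower with difamilast than without it.

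With difamilast added to the cytokines, 3 of the 10 genes rose against stimulated cells in vehicle: Nfkbie (1.81-fold), Nfkb1 (1.45-fold) and Nfkbiz (1.33-fold). None passed as lower in edgeR, where 1 gene, Nfkbia, had an unadjusted p under 0.05 in that direction; DESeq2 and limma-voom each called Nfkbia lower. The number of family genes called was 1, Nfkbie, without stimulated replicate 1 or 2, and 5 without resting replicate 1. Among all tested genes 2.21% rose and 1.24% fell. The libraries of the 2 groups did not overlap for 9 of the 10 genes, with difamilast higher in 7 and lower in 2 (Nfkbia and, by a margin smaller than the digits printed for it, Nfkbib), against 24.8% of all tested genes in either direction. Over the 10 genes the log2 fold change had a median of 0.24, beside -0.0029 over all tested genes. Short transcripts tended lower in this comparison: the median was -0.35 for genes under 1000 bases and 0.04 in the class of the longest transcripts, among genes averaging at least 10 CPM. With that trend removed the calls of Nfkb1, Nfkbie and Nfkbiz held and Nfkbia passed as lower.

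Among the subunits, Nfkb1 (chr3:135584655-135691547, minus strand, GRCm38, as are all positions of genes here) had the highest CPM and rose with both treatments. It lay at 1318, 1173 and 1180 CPM in difamilast libraries, 794.7, 813.2 and 918.3 CPM in stimulated libraries and 161.1, 150.7 and 153.1 CPM in resting libraries. The 3 groups were separate from each other, in that order. Nfkb1 rose by 2.44 ± 0.10 on the log2 scale with stimulation (SE; adjusted p = 1.46e-10, edgeR) and by a further 0.54 ± 0.10 with difamilast (adjusted p = 0.0048). The difamilast call was lost without stimulated replicate 1 (adjusted p = 0.0542) or 2 (adjusted p = 0.0506), at log2 fold changes of 0.50 and 0.52.

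Nfkb2 (chr19:46304320-46312385, plus strand), whose precursor p100 is the substrate of the non-canonical branch of the pathway, had 502.4, 503.3 and 437.3 CPM in difamilast libraries, 423, 381.7 and 409.3 CPM in stimulated libraries and 119.4, 79.21 and 82.7 CPM in resting libraries. It was 4.31-fold higher with stimulation (adjusted p = 2.57e-08, edgeR). The difamilast libraries all lay above the stimulated ones, but the log2 fold change of 0.25 (95% interval -0.04 to 0.54) did not pass (adjusted p = 0.438). It passed without resting replicate 1 (adjusted p = 0.0491). Nfkb2 shares 531 and 299 exonic bases with AC114539.1 and Psd on the other strand, and the use of strand in counting is not given, so its counts may hold reads of both.

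Rela (chr19:5637483-5648130, plus strand), the subunit of the classical p50 and RelA dimer, was the gene with the smallest response to stimulation. It lay at 134.8, 124.8 and 105.8 CPM in difamilast libraries, 100.1, 103.8 and 103 CPM in stimulated libraries and 112.9, 64.95 and 61.8 CPM in resting libraries. Stimulated libraries were nearly identical, whereas resting replicate 1 stood far above the other 2 resting libraries. The log2 fold change with stimulation was 0.35 ± 0.18 (SE; 95% interval -0.03 to 0.74; adjusted p = 0.158, edgeR). Without resting replicate 1 it was 0.66 and passed (adjusted p = 6.74e-05). With the length trend removed it was 0.45 and passed too (adjusted p = 0.0326, limma). Scaled by library totals alone it was -0.18 (adjusted p = 0.479), a setting that moved the median of all genes to -0.47. With difamilast against stimulated cells it was 0.25 (95% interval -0.13 to 0.64; adjusted p = 0.583).

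Rel (chr11:23736847-23770970, minus strand), which encodes c-Rel, had 211.9, 210.9 and 252.8 CPM in difamilast libraries, 189.3, 195.6 and 188 CPM in stimulated libraries and 63.15, 74.31 and 65.86 CPM in resting libraries. It rose 2.82-fold with stimulation (adjusted p = 5.39e-08, edgeR). Difamilast libraries were higher than stimulated ones without overlap, and the log2 fold change of 0.24 (95% interval 0.01 to 0.46) missed the threshold (adjusted p = 0.306). Relb (chr7:19606217-19629438, minus strand), the partner of p52, lay at 76.85, 73.06 and 70 CPM with difamilast, 67.93, 74 and 76.35 CPM in stimulated libraries and 26.57, 20.59 and 28.12 CPM in resting libraries. It rose 2.92-fold with stimulation (adjusted p = 1.96e-07). With difamilast the groups overlapped, and the interval of its log2 fold change, -0.25 to 0.27 around 0.01, was the one most evenly placed about 0 (adjusted p = 0.985).

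**Figure D2:**
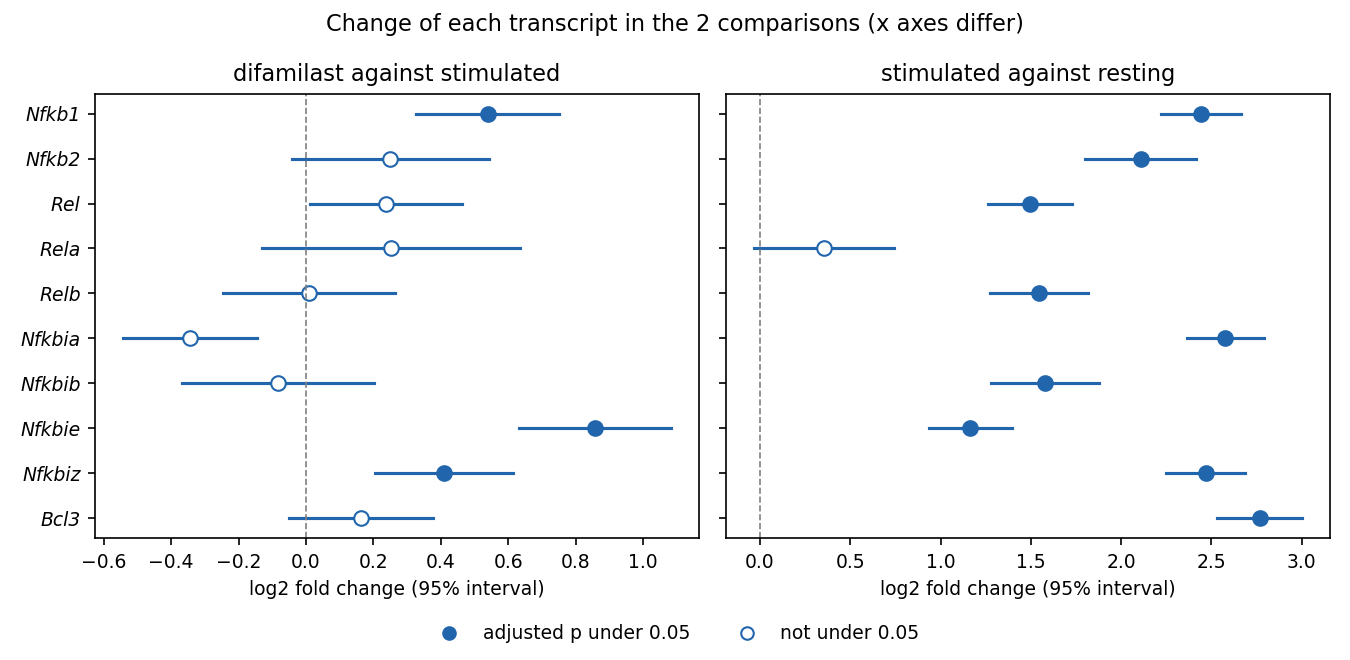
Log2 fold changes (points) with 95% intervals (lines) of the 10 genes, difamilast against stimulated on the left and stimulated against resting on the right, on x axes of different range; filled points had an adjusted p under 0.05 in edgeR. All genes but Rela are filled on the right, and Nfkb1, Nfkbie and Nfkbiz are filled on the left, where Nfkbia lies at -0.34.

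The classical IkB genes all rose with stimulation, and of them only Nfkbie passed with difamilast. Nfkbia (chr12:55489410-55492647, minus strand), which encodes IkBa, the inhibitor that is resynthesised to end an NF-kB response, had 2205, 2331 and 2215 CPM in difamilast libraries, 2771, 2846 and 2952 CPM in stimulated libraries and 445.2, 496.8 and 494 CPM in resting libraries. Every difamilast library lay below every stimulated one and far above the resting ones. With stimulation Nfkbia rose by 2.58 ± 0.10 on the log2 scale (SE; adjusted p = 5.29e-11, edgeR). With difamilast its log2 fold change was -0.34 ± 0.09 (95% interval -0.54 to -0.14; unadjusted p = 0.00231, adjusted p = 0.0612). It passed as lower with DESeq2 (adjusted p = 0.00312), limma-voom (0.0115), a fit of these groups alone (0.00564), removal of the length trend (0.0201) and without resting replicate 1 (0.00133), within a range of 0.00133 to 0.28 over 18 alternatives.

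Nfkbie (chr17:45555703-45563169, plus strand), which encodes IkBe, another cytoplasmic inhibitor, had the opposite sign of change with the drug. It lay at 189.5, 189.1 and 167.6 CPM in difamilast libraries, 103.1, 99.14 and 99.16 CPM in stimulated libraries and 50.28, 41.01 and 42.93 CPM in resting libraries. The 3 groups formed separate steps. Of the 9 genes that rose with stimulation it rose least, by 1.17 ± 0.11 on the log2 scale (SE; adjusted p = 8.16e-07, edgeR). It rose most with difamilast, by a further 0.86 ± 0.11 (adjusted p = 0.000164), and kept that call in all 18 alternatives, with log2 fold changes between 0.83 and 0.91.

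Nfkbib (chr7:28758251-28767512, minus strand), which encodes IkBb, had 135.1, 130.4 and 123.6 CPM in difamilast libraries, 139.7, 135.1 and 137.6 CPM in stimulated libraries and 37.83, 42.16 and 59.02 CPM in resting libraries. It rose 2.99-fold with stimulation (adjusted p = 4.44e-07, edgeR). The highest difamilast library and the lowest stimulated one were equal as printed, though before rounding these groups did not overlap. The log2 fold change of -0.08 (95% interval -0.37 to 0.20) did not pass (adjusted p = 0.843, edgeR). Its exons share 314 bases with Ccer2 and 42 with Sirt2, on the other strand.

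Both atypical IkB genes were among those with the steepest rises. Nfkbiz (chr16:55811375-55838899, minus strand), which encodes IkBz, a cofactor needed for a subset of secondary response genes such as Il6 in macrophages, had 567.7, 560.9 and 482.6 CPM in difamilast libraries, 416.5, 393.9 and 403.6 CPM in stimulated libraries and 72.52, 73.21 and 73.58 CPM in resting libraries. It rose 5.53-fold with stimulation (adjusted p = 9.7e-11, edgeR) and 1.33-fold more with difamilast (log2 0.41 ± 0.10 SE, adjusted p = 0.0262). The difamilast and stimulated libraries did not overlap, but the call was lost without any 1 of stimulated replicates 1, 2 and 3 (adjusted p = 0.0986, 0.164 and 0.129) or difamilast replicates 1 and 2 (0.144 and 0.176). It was lost as well when libraries were scaled by their totals alone (adjusted p = 0.0579).

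Bcl3 (chr7:19808462-19822770, minus strand), whose product can activate or repress on p50 and p52 homodimers, had 152, 148.4 and 140.4 CPM in difamilast libraries, 125.8, 129.1 and 138.7 CPM in stimulated libraries and 18.32, 18.44 and 21.4 CPM in resting libraries. Its rise with stimulation, 2.77 ± 0.11 on the log2 scale, was the largest of the 10 genes (SE; adjusted p = 6.71e-11, edgeR). Every difamilast library lay above every stimulated one, by a margin that did not pass (log2 fold change 0.16, 95% interval -0.05 to 0.38; adjusted p = 0.498). Bcl3 shares 161 exonic bases with Gm16175 on the other strand.

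Difamilast cells were also set against resting cells, a comparison that shares libraries with both of the others. All 10 genes were higher by edgeR's test, where 16.4% of all tested genes were higher and 16.4% lower, and the groups did not overlap for 9 of them (42.9% of all tested genes in either direction). The log2 fold changes ran from 0.61 ± 0.18 for Rela (SE; adjusted p = 0.0185) to 2.98 ± 0.11 for Nfkb1 (adjusted p = 2.74e-11). The Rela call was lost without resting replicate 2 (adjusted p = 0.11) or 3 (0.109), without difamilast replicate 1 (0.0721) or 2 (0.0516), or with scaling by library totals (0.736). The order of the rises differed from that with stimulation alone in vehicle: Nfkb1 (7.89-fold) and Bcl3 (7.62-fold) came first under difamilast, and Bcl3 (6.81-fold) and Nfkbia (5.97-fold) in vehicle. For Nfkbia, the rise over resting cells was 4.70-fold under difamilast. Taking from each related list the 3 genes with its smallest p-values, the values were those of Ikbke (5.37-fold higher), Map3k8 (3.45-fold), Irak3 (2.48-fold), the ubiquitin-conjugating enzymes Ube2d2a (1.25-fold), Ube2n (1.30-fold) and Cdc34 (1.30-fold), Rps6ka5 (2.29-fold lower), Crebbp (1.76-fold higher), Sirt1 (1.87-fold), Ptgs2 (18.2-fold), Il6 (12.4-fold) and Cxcl2 (16.9-fold), all called by edgeR. The calls of the 3 ubiquitin-conjugating enzymes were lost when single libraries were left out and, like that of Sirt1, with scaling by library totals. For Ube2d2a, Ube2n and Cdc34 a fit of only the 2 groups compared lost them too (adjusted p = 0.0591, 0.0693 and 0.109, edgeR). Cdc34 was called in only 6 of 18 alternatives.

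Levels were compared between genes as CPM per kilobase of the principal GENCODE transcript, since longer transcripts collect more reads. Nfkbia stood highest in every group, at 1426 ± 44.6 in difamilast, 1810 ± 57.8 in stimulated and 303 ± 18.4 in resting cells (SD, n = 3). It was followed in every group by Nfkb1 (297 ± 19.9, 204 ± 16.2 and 37.6 ± 1.32) and Nfkb2 (153 ± 12.1, 129 ± 6.70 and 29.9 ± 7.08). In stimulated cells the whole order, Nfkbia, Nfkb1, Nfkb2, Nfkbiz, Bcl3, Nfkbib, Nfkbie, Rela, Relb and Rel, had no overlap between neighbours. In difamilast cells Nfkbie stood above Nfkbib, and the neighbours Bcl3 and Nfkbie, and Relb and Rel, overlapped. In resting cells the genes from Nfkb1 down to Nfkbiz overlapped with their neighbours, and so did Relb, Bcl3 and Rel. Rela held rank 4 of the 10 genes in resting cells and rank 8 in both other groups. These ranks, and the gaps between neighbours, depend on the transcript length chosen. Over the union of all annotated exons, Nfkb1 averaged less than Nfkb2 in every group. The shares of the summed subunits were 34.4% and 35.5% in difamilast, 29.6% and 37.5% in stimulated and 17.5% and 27.2% in resting cells. In resting cells Rela, at 34.1%, then stood above both. The 10 genes together took between 0.44% and 0.503% of all reads in difamilast, 0.457% and 0.472% in stimulated and 0.13% and 0.146% in resting libraries.

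The make-up of the subunit transcripts differed between the groups. Of their per-kilobase sum, Nfkb1 made up 53.2% ± 1.42 in difamilast, 47.6% ± 1.79 in stimulated and 32.5% ± 3.79 in resting cells (SD, n = 3). Rela made up 8.01% ± 0.576, 8.78% ± 0.378 and 24.6% ± 4.65. Nfkb2 held between 24.01% and 32.02% in every library. These shares depend on the transcript chosen. Over the union of all annotated exons, where Nfkb1 is 12061 bases long in place of 4117, Nfkb1 made up 34.4% ± 1.20, 29.6% ± 1.53 and 17.5% ± 2.49 and Rela 13.4% ± 0.952, 14.1% ± 0.502 and 34.1% ± 5.38, with the same order of groups. On average Rela then led the resting pool, and Nfkb2 led the difamilast and stimulated pools.

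Within the classical inhibitors, Nfkbia made up 91.2% ± 0.458 in difamilast, 94.4% ± 0.243 in stimulated and 88.1% ± 1.17 in resting cells, without overlap between groups. Nfkbie made up 4.78% ± 0.281, 2.15% ± 0.108 and 5.37% ± 0.917. Its share in difamilast libraries, between 4.492% and 5.053%, fell within the range of the resting libraries, 4.783% to 6.43%, except for replicate 3, and was over that of every stimulated library.

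**Figure D3:**
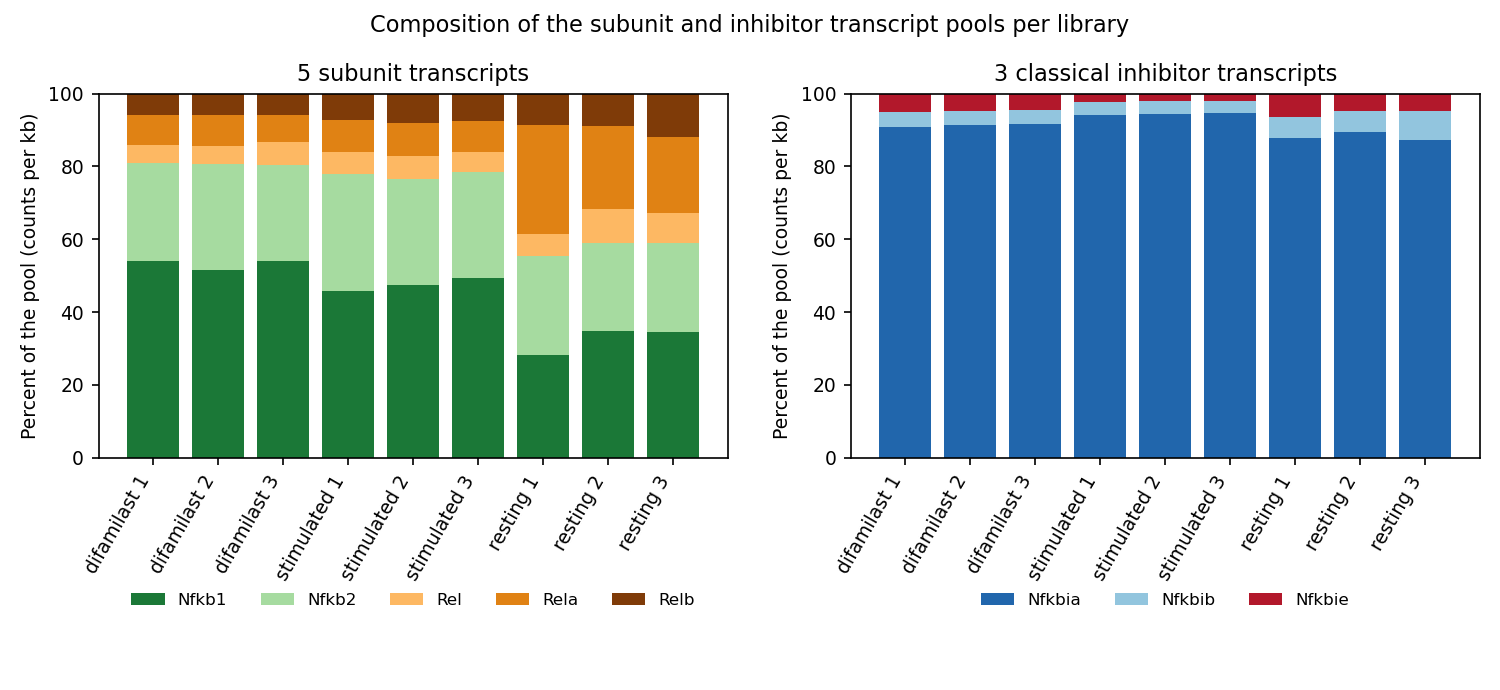
Share of each gene (y axis, percent) in the per-kilobase counts of the 5 subunit genes on the left and of the 3 classical inhibitor genes on the right, in each of the 9 libraries (x axis). Nfkb1 takes 45.88% to 54.04% of the subunit pool in cytokine-treated libraries and 28.12% to 34.86% in resting ones, and the Nfkbie band is narrowest in the stimulated libraries.

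Ratios of transcripts within a library are free of scaling between libraries, and 8 were compared in each of the 3 pairs of groups. A two-sided exact permutation test of 3 against 3 libraries cannot give a p below 0.1, which is 0.126 after adjustment over the 24 tests, so none could pass. The 3 classical inhibitors over the 5 subunits gave per-kilobase ratios of 2.598, 2.93 and 2.889 in difamilast libraries, 4.436, 4.58 and 4.386 in stimulated libraries and 2.307, 3.353 and 3.333 in resting libraries. The stimulated libraries stood apart above both other groups (exact permutation p = 0.1 for each), and difamilast and resting libraries overlapped (exact permutation p = 0.6). Over union exon lengths the ratios were 4.805 to 5.328, 7.788 to 8.107 and 3.395 to 5.203 in difamilast, stimulated and resting libraries.

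Nfkbia over Rela, the inhibitor against the subunit it chiefly holds, was 28.15, 32.14 and 36.01 in difamilast libraries, 47.64, 47.2 and 49.32 in stimulated libraries and 6.789, 13.16 and 13.76 in resting libraries. All 3 groups were separate (exact permutation p = 0.1 for each pair), with resting replicate 1 again apart from its group. Nfkbiz over Nfkbia was 0.09875, 0.09227 and 0.08357 with difamilast, 0.05764, 0.05308 and 0.05243 in stimulated libraries and 0.06247, 0.05651 and 0.05711 in resting libraries. Only the difamilast libraries stood apart for that ratio (exact permutation p = 0.1 against stimulated), while stimulated and resting libraries overlapped (exact permutation p = 0.3). Rel over Rela was 2.12-fold and Relb over Rela 2.19-fold higher in stimulated than in resting cells, each without overlap (exact permutation p = 0.1). Nfkb2 over Nfkb1 was 1.22-fold lower in difamilast than in stimulated cells and Bcl3 over Nfkb1 1.30-fold lower (exact permutation p = 0.1 each). Nfkbia over Nfkbib was 1.20-fold lower in difamilast than in stimulated cells and 1.98-fold higher in stimulated than in resting cells (exact permutation p = 0.1 each).

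**Figure D4:**
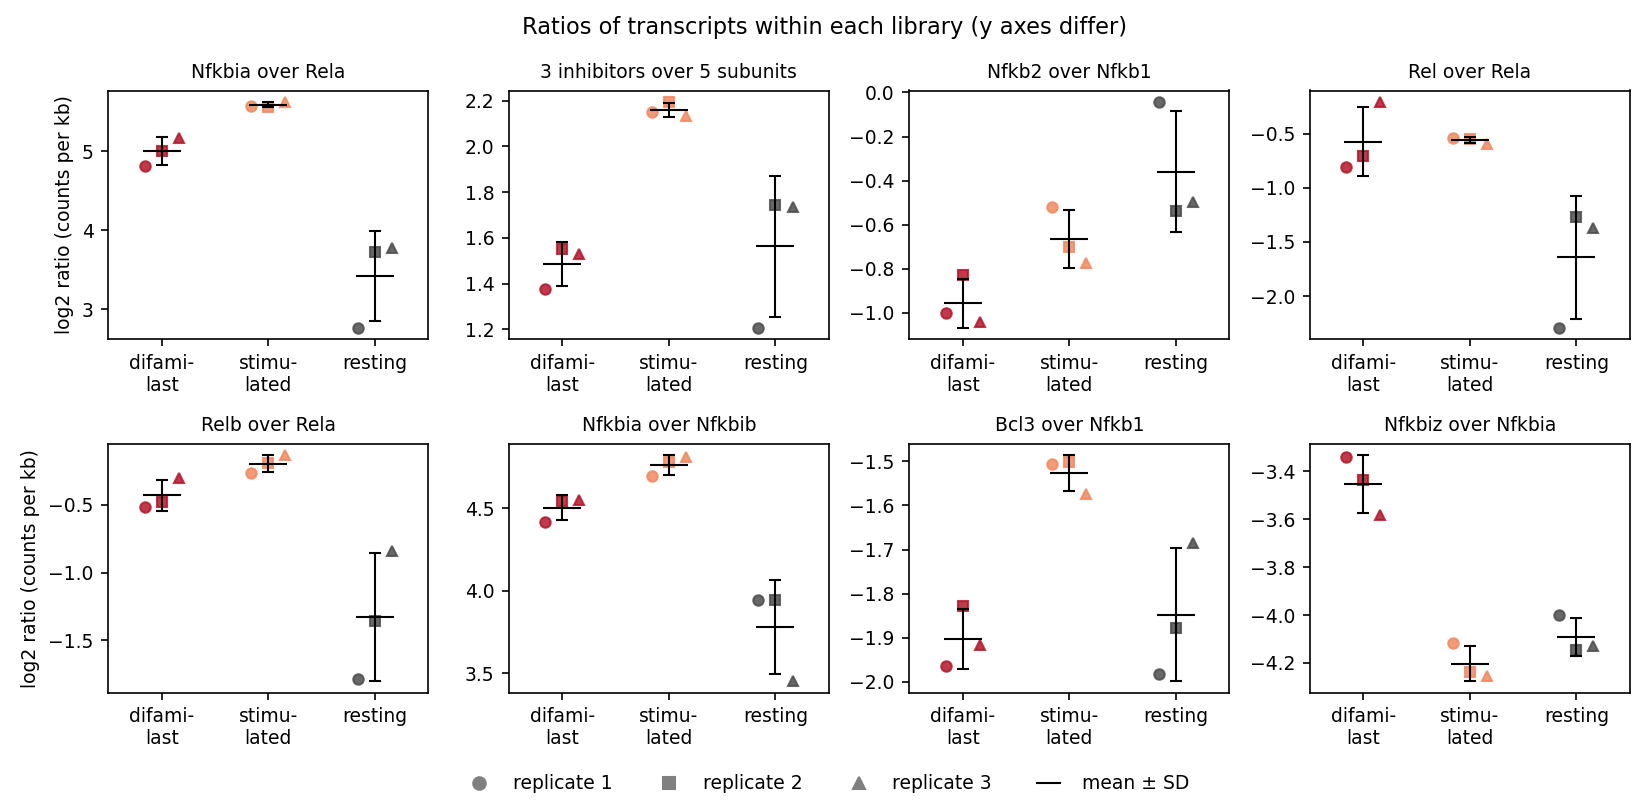
Log2 ratios of per-kilobase counts (y axis; ranges differ between panels) within each library, by group (x axis), for the 8 ratios; symbols mark replicate numbers and black bars the mean ± SD. The ratio of inhibitors to subunits is highest in stimulated libraries, and Nfkbiz over Nfkbia is highest in difamilast libraries.

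The kinases that act on IkB proteins and those upstream of them changed unevenly. Of 16 tested, 7 rose and 1 fell with stimulation, with a median log2 fold change of 0.21, where 15.3% of all tested genes rose and 16.4% fell. Scaled by library totals alone, 5 rose and 8 fell. Ikbke, an IkB kinase-related enzyme of interferon signalling, rose 6.42-fold (adjusted p = 2.3e-10, edgeR), Map3k8, which is bound by p105, 3.73-fold (1.5e-07), and Irak3, an inhibitor of receptor-proximal IRAK kinases, 3.28-fold (3.46e-09). Among the core kinase complex, Ikbkb (IKKb) had 383.9, 379.4 and 384.9 CPM in difamilast libraries, 456, 448.4 and 442.3 CPM in stimulated libraries and 217.5, 167.1 and 160.5 CPM in resting libraries, and rose 2.47-fold with stimulation (adjusted p = 4.52e-07). The other catalytic gene Chuk (IKKa) and the regulatory gene Ikbkg (NEMO) did not pass, at log2 fold changes of 0.24 (95% interval -0.05 to 0.54) and -0.42 (-0.75 to -0.09; adjusted p = 0.0529). Ikbkb, Chuk and Ikbkg were singled out after their values were seen.

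With difamilast, 1 of the 16 kinase genes rose and 1 fell (2.21% and 1.24% of all tested genes); without resting replicate 1, 1 rose and 3 fell. Map3k14, which encodes NIK, the kinase that starts p100 processing, had 46.62, 44.84 and 37.32 CPM in difamilast libraries and 32.16, 25.53 and 28.93 CPM in stimulated libraries, 1.49-fold higher (adjusted p = 0.046, edgeR). Irak3 was 1.32-fold lower (adjusted p = 0.0257). Both calls were lost when any 1 stimulated library, or difamilast replicate 1 or 2, was left out (adjusted p = 0.0838 to 0.264 for Map3k14 and 0.087 to 0.206 for Irak3). Both were also lost with scaling by library totals (0.0634 and 0.0693). Map3k14 further failed without resting replicate 2 (0.0501) and after thinning (0.076), and Irak3 with no filter on low counts (0.0764) and with the replicate number as a block (0.0568).

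Of 14 tested genes of IkB degradation and precursor processing, 5 rose and 1 fell with stimulation (15.3% and 16.4% of all tested genes), a total that was 3 without any 1 stimulated library. The direction depended on scaling: by library totals alone, 0 rose and 7 fell, with a median of all genes of -0.465 on the log2 scale. The smallest p-values were those of the ubiquitin-conjugating enzymes Ube2n (1.51-fold; adjusted p = 0.00164, edgeR), Cdc34 (1.54-fold; 0.00336) and Ube2d2a (1.25-fold; 0.0169). None of these calls held with scaling by library totals alone (adjusted p = 0.65, 0.593 and 0.175). That of Ube2d2a was also lost without resting replicate 2 (0.0557) or stimulated replicate 1 (0.117), and with no filter on low counts (0.0766). With difamilast 0 of the 14 passed in edgeR or in any other setting, and 1 had an unadjusted p under 0.05.

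Among 18 other IkB-like proteins and nuclear cofactors, 3 rose and 3 fell with stimulation, near the shares of all tested genes (15.3% and 16.4%), and 1 rose and 8 fell with scaling by library totals. With difamilast 1 rose and 1 fell (2.21% and 1.24% of all tested genes), a total of 4 without resting replicate 1, and of 1 without any 1 stimulated library or difamilast replicate 2. Nfkbid, which encodes the nuclear protein IkBNS, was the one that fell with the drug. It lay at 26.88, 25.03 and 26.7 CPM in difamilast libraries, 44.34, 43.64 and 41.23 CPM in stimulated libraries and 21.89, 20.59 and 19 CPM in resting libraries. It rose 2.09-fold with stimulation (adjusted p = 5.15e-06, edgeR) and was 1.64-fold lower with difamilast than without it (adjusted p = 0.0015), a call kept in all 18 alternatives. The deacetylase gene Sirt1, whose product acts on RelA, was 1.63-fold higher with difamilast (adjusted p = 0.0281) a call lost without any 1 stimulated library (0.0532 to 0.178), without difamilast replicate 2 (0.178) or 3 (0.0544) and with the length trend removed (0.052). The kinase gene Rps6ka5 (MSK1, which phosphorylates RelA) and Nfkbil1 were 2.49-fold and 2.22-fold lower with stimulation (adjusted p = 3.99e-06 and 0.000315).

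Known NF-kB target genes outside the family rose in 28 of 30 cases with stimulation and fell in 1, Birc2 (1.51-fold lower), while Cd40 did not pass (adjusted p = 0.0607, edgeR); the median log2 fold change was 1.69, and 15.3% of all tested genes rose and 16.4% fell. Those with the smallest p were Il6 (19.1-fold), the survival gene Bcl2l1 (8.64-fold) and the chemokine gene Cxcl2 (14.3-fold; adjusted p = 2.39e-11 or below, edgeR). The list was chosen with earlier results of these data known. IL-3 and IL-33 were given together, and the part of each in these rises was not tested. With difamilast the 30 genes split: 3 rose, 5 fell and 22 did not pass. Their median log2 fold change was -0.24, and 2.21% of all tested genes rose and 1.24% fell. These 8 calls were 15 without resting replicate 1, and 5 without stimulated replicate 1 or 3 or difamilast replicate 2. The adhesion molecule gene Icam1 had 151.9, 151.9 and 176.1 CPM in difamilast libraries and 362.6, 352.3 and 348 CPM in stimulated libraries, 2.21-fold lower (adjusted p = 9.21e-06). Cd83 had 81.29, 89.28 and 71.23 CPM with difamilast and 42.82, 44.47 and 45.93 CPM without it, 1.81-fold higher (adjusted p = 0.00132), and Ptgs2 was 2.24-fold higher (7.92e-06). Of the remaining called genes, named after their values were seen, Cyld was 1.37-fold higher. Lower were Cd40 (1.67-fold), Gadd45b (1.54-fold), Il6 (1.54-fold) and Tnf (2.82-fold). Against resting cells 26 of the 30 were higher and 2 lower under difamilast, where 16.4% of all tested genes were higher and 16.4% lower.

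Genes were ranked by how closely they followed a family gene, as the Pearson correlation of log2 CPM over the 9 libraries. Compared were 7862 genes averaging at least 10 CPM, leaving out family genes, predicted genes, pseudogenes and ribosomal protein genes. Nearest to Nfkbia were Egr1 (r = 0.999), Il6 (0.999) and Dock10 (0.999), each of which had a lower mean with difamilast than without it: 164 and 206 CPM for Egr1, 3977 and 6124 CPM for Il6, and 570 and 694 CPM for Dock10. Nearest to Bcl3 were Tnfsf14 (0.999), Platr15 (0.999) and Il1b (0.998), each with a higher mean under difamilast, such as 304 and 270 CPM for Tnfsf14. Nearest to Rel were Ddx3x (0.997), Ezh2 (0.996) and Ntng2 (0.995). The points share 3 groups of 3 libraries, so that the difference between resting and cytokine-treated libraries sets most of each correlation. These genes were picked by correlation over the same libraries, so their means under difamilast are not separate evidence. Within the family, Nfkb1 and Nfkbiz were closest (r = 0.997), Nfkbia and Nfkbie had r = 0.84, and Rela had between 0.575 and 0.805 with the other genes.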

How the data were processed

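The authors deposited raw read counts per gene symbol for 9 libraries, and per the labels' protocols polyadenylated RNA was amplified over the whole transcriptome before fragmentation. Per the submitters' processing notes cutadapt 4.1, Bowtie2 2.4.5 and GRCm38 were used, with no role given. Which tool counted the reads, and whether by strand, is not given in the sources used here. No molecular identifiers are mentioned.

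Counts were tested with edgeR 4.0.16 (R 4.3.3, limma 3.58.1, statmod 1.5.0): filterByExpr (minimum count 10, minimum total 15), TMM scaling, robust quasi-likelihood fit of all 9 libraries in 3 groups with 6 residual degrees of freedom, and Benjamini-Hochberg adjustment over 21341 genes, called at 0.05. The common biological coefficient of variation was 0.156. Standard errors and 95% intervals of log2 fold changes come from that fit, which was checked on simulated counts. Lengths and positions are from GENCODE vM21 (GRCm38), using the longest principal transcript. The alternatives comprised limma-voom, DESeq2 1.42.0, a replicate block, a fit of only the 2 groups compared, RLE scaling, genes kept without a filter, a lowess length trend removed (span 0.3, with log2 CPM at a prior count of 2), thinning to the shallowest total, and each library left out. Scaling by library totals only and union exon lengths were added after seeing the data. Genes and lists were chosen with earlier results of these data known. All 10 genes are named. Of each related list, the up to 3 called genes with the smallest p per comparison are named. Marker lists are given as sums and counts of calls. Single markers, and some further genes of the related lists, were named outside that rule. The aliases Kpc1 and Mcpt5 in the lists are not symbols of the table. A planned search of protein sequences was not made. Counting limits cover reads only, since amplified reads are not independent molecules.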

Additional observations from a re-analysis of the deposited data

How the results depend on the processing

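Over 18 alternatives for each comparison, the 10 genes kept their direction and side of the threshold in 177 of 180 cases for stimulation, 162 of 180 for difamilast against stimulated cells and 175 of 180 for difamilast against resting cells. The number of family genes called with difamilast ran from 1 to 5 when single libraries were left out: 5 without resting replicate 1, and 1 (Nfkbie) without stimulated replicate 1 or 2. Rela had a log2 fold change of -0.18 with stimulation (adjusted p = 0.479) when libraries were scaled by totals, a setting with a median of all genes of -0.465. Relb, near 0 with difamilast, had log2 fold changes of -0.0077 with the length trend removed, and between -0.031 and 0.045 as single libraries were left out. With scaling by totals Ube2d2a had -0.20 with stimulation, and Ube2d2a, Ube2n and Cdc34 had -0.18, -0.12 and -0.12 in difamilast against resting cells. Among the ratios (difference of mean log2 ratios), inhibitors over subunits ran from -0.25 to 0.0149 for difamilast against resting cells, Rel over Rela from -0.20 to 0.106 for difamilast against stimulated cells, and Bcl3 over Nfkb1 from -0.12 to 0.0271 for difamilast against resting cells, as single libraries were left out.

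Deviations from group means of libraries with the same replicate number correlated between -0.396 and 0.419, and those with different numbers between -0.527 and 0.592. With 3 libraries per group, whose deviations sum to 0, these values cannot decide whether the numbers pair the libraries. With the replicate number as a block 9, 2 and 10 family genes were called for stimulation, for difamilast added to it and for difamilast against resting cells, against 9, 3 and 10 without it; Nfkbiz was the one lost (adjusted p = 0.0542), and among the related genes named Irak3 was lost with difamilast (adjusted p = 0.0568). The shallowest library, resting replicate 3, held between 169 and 3901 reads of each family gene, so counting error weighed most on Bcl3 there.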
